A study of Homo sapiens with 9 samples.

Results

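The genes described here are EPHX1, which encodes microsomal epoxide hydrolase, and 4 exporters of the multidrug resistance protein family, ABCC1, ABCC2, ABCC3 and ABCC5. They were chosen by name, and every probe set that the array annotation assigns to 1 of them alone was used, which gave 8 probe sets for 5 of the 12165 genes measured. ABCC1 has 2 of these probe sets, ABCC3 has 3 and the other genes have 1 each. RNA came from LNCaP, an androgen-responsive human prostate cancer cell line, kept for 2 days in serum stripped with charcoal to remove steroids and measured on 9 Affymetrix arrays in 3 groups of 3. The first group received 1 nM R1881, a synthetic androgen that cells do not metabolise, together with 1.25 µM celastrol, a plant triterpenoid, for 24 h. The second received 1 nM R1881 and DMSO, with 6 h in the array titles but 24 h in the descriptions and the series design, a conflict that touches both comparisons with these arrays. The third received the solvents ethanol and DMSO for 24 h and is called vehicle. All 3 groups were starved of androgen, and the 3 cultures of a group are labelled as biological replicates without further detail, so that p-values measure only the spread between these cultures.

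Cells clear reactive and foreign compounds in steps. In an early step epoxide hydrolases turn reactive epoxides into less reactive diols. Transferases attach glutathione, glucuronate or sulfate, and ATP-driven pumps of the ABCC family carry the conjugates out of the cell. The stress-responsive transcription factor NRF2, held in check by KEAP1 and CUL3, binds antioxidant response elements, and EPHX1 and several ABCC exporters are commonly counted among its targets. In prostate cancer these pumps are known mainly for carrying anticancer drugs out of tumour cells.

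Values are deposited intensities on a linear scale, normalized between arrays by the authors with RMA, and a gene with several probe sets is represented by its brightest one. The arrays had medians of 72.2 to 80.2. The upper quartile was 332.5 on the third vehicle array and 377.4 to 408.7 on the others. The third vehicle array differed most from its own group: over genes, its departures from the mean of the 3 had an SD of 0.31 on the log2 scale, where the other arrays had 0.12 to 0.20. All 7 measured LNCaP markers, KLK3, KLK2, FOLH1, TMPRSS2, HOXB13, KRT8 and KRT18, were brighter than the median gene. Their summed intensity was 37083 to 40535 with androgen plus celastrol, 50262 to 53689 with androgen and 27159 to 28245 with vehicle. With androgen against vehicle 5 of the 7 rose and FOLH1 fell (limma), where 13.0% of all genes were called. With celastrol against androgen KLK3, KLK2, KRT8 and KRT18 fell and none rose, where 7.24% of all genes were called downwards and 9.0% upwards. Over 21 alternative settings 3 to 4 of the markers fell there and 0 to 1 rose. KLK3 averaged 13770 with androgen and 3107 with vehicle, and FOLH1 averaged 10792 and 15351. The sums mix these directions and are not a measure of cell number. The 10 measured markers of basal, stromal, blood and vessel cells were all dimmer than the median gene, and their summed intensity was 415.3 to 433.8 with androgen plus celastrol, 406.3 to 478.4 with androgen and 487.4 to 655.8 with vehicle. One of the 10, COL1A1, rose with celastrol against androgen by 0.42 on the log2 scale (limma, adjusted p = 0.0446), a call lost in 13 of 21 settings, among them leaving out any 1 array with androgen or with androgen plus celastrol, or vehicle replicate 2. VWF fell with androgen and with androgen plus celastrol against vehicle. The part of these marker levels in the results below was not tested. In bulk RNA fewer cells of a type and less RNA per cell cannot be told apart.

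The members differed widely in how far above the bottom of the intensity range they stood. By mean log2 intensity, the EPHX1 probe set ranked at percentile 94.9 of the 22215 probe sets, the ABCC1 probe sets at 93.3 and 75.7 and the ABCC5 probe set at 67.4. The ABCC2 probe set ranked at 19.9 and the 3 ABCC3 probe sets at 29.7, 26.3 and 9.26, near the bottom of the range, and no detection calls were used to tell such values from background. Brightness also depends on the probes, and ranks do not order the genes by abundance. The plot of intensities by array shows all 8 probe sets.

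**Figure D1:**
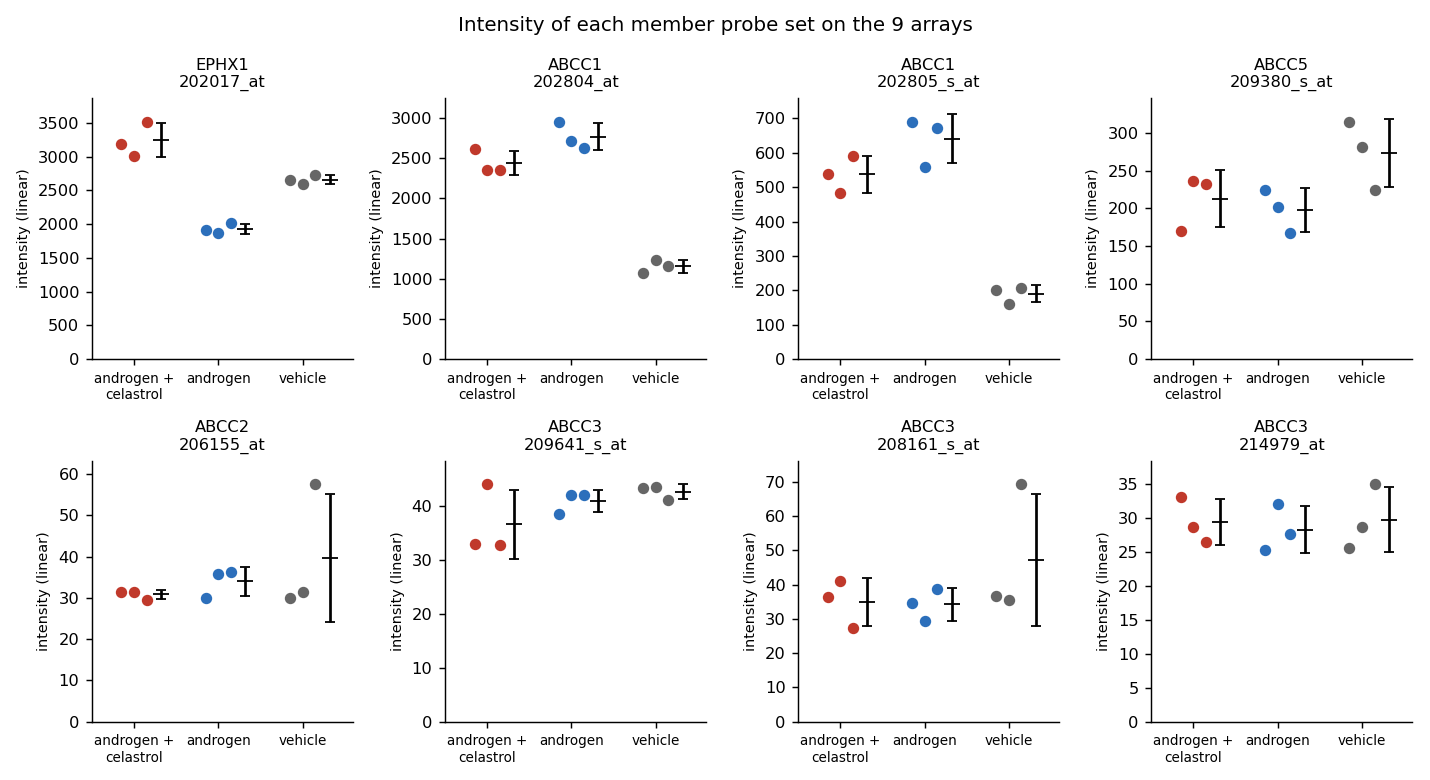
Intensity on a linear scale (vertical axes, from 0) of each member probe set on the 9 arrays, with androgen plus celastrol, androgen and vehicle from left to right; points are arrays in the order of their replicate numbers, and the black mark with bars is the group mean ± SD (n = 3). EPHX1 lies lowest with androgen and highest with androgen plus celastrol, both ABCC1 probe sets lie far below the other groups with vehicle, and ABCC2 and ABCC3 stay under 70 on every array.

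Androgen plus celastrol was set against androgen alone to see what celastrol changed in the presence of the hormone. EPHX1 rose with celastrol, and no ABCC member passed the threshold of an adjusted p under 0.05 in the limma fit over all genes. That is 1 of 5 members, against 16.2% of all 12165 genes called in this comparison, 9.0% upwards and 7.24% downwards. Of all 22215 probe sets, 12.6% were called when each was tested on its own, and of the 8 member probe sets again the EPHX1 one alone was.

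Androgen was set against vehicle to see what the hormone changed in starved cells. ABCC1 rose and EPHX1 fell, which is 2 of 5 members, where 13.0% of all genes were called, 7.17% upwards and 5.84% downwards. With each array centred on its median, 1182 genes were called upwards and 529 downwards, against 872 and 711, and the 2 member calls stayed in direction. Among single probe sets 10.5% were called, and these included both ABCC1 probe sets and that of EPHX1. Androgen plus celastrol was finally set against vehicle, both labelled 24 h throughout, and here ABCC1 and EPHX1 were higher, 2 of 5 members, where 23.3% of all genes were called, 13.3% upwards and 10.0% downwards. That balance depends on the scaling: 1622 genes were higher and 1218 lower as deposited, 1962 and 1002 with each array centred on its median, and 1518 and 1662 with quantile normalization. Among single probe sets 19.0% were called, again with both of ABCC1 and that of EPHX1. The 3 comparisons share arrays in pairs, and with so few members these counts are a description.

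EPHX1 adds water to reactive epoxides, such as those formed from aromatic hydrocarbons and some drugs, and turns them into less reactive diols in the endoplasmic reticulum. Its intensity was 3193, 3018 and 3520 on the androgen plus celastrol arrays, 1919, 1864 and 2015 on the androgen arrays and 2653, 2599 and 2728 on the vehicle arrays. The 3 groups did not overlap: every androgen array was below every vehicle array, and every array with celastrol was above both. The mean was 3244 ± 255 with androgen plus celastrol, 1933 ± 76.6 with androgen and 2660 ± 64.6 with vehicle (SD, n = 3 each).

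On the log2 scale EPHX1 was higher with androgen plus celastrol than with androgen by 0.74 ± 0.08 (standard error of the limma fit, adjusted p = 0.000473), a 1.68-fold difference. With androgen against vehicle it changed by -0.46 ± 0.08 (limma, adjusted p = 0.00563). Both calls were kept in each of 21 alternative settings, with log2 changes between 0.68 and 0.80 for celastrol and between -0.54 and -0.38 for androgen. With androgen plus celastrol against vehicle EPHX1 was higher by 0.28 ± 0.08, a 1.22-fold difference (limma, adjusted p = 0.0363). That call is close to the threshold and was lost in 11 of 21 settings, among them leaving out androgen plus celastrol replicate 1 (adjusted p = 0.0689), replicate 3 of that group (0.113), vehicle replicate 1 (0.0907) or vehicle replicate 2 (0.0903). It was also lost without androgen replicate 1 (0.0616), 2 (0.0564) or 3 (0.0531), which enter this difference only through the shared estimate of spread, and the change became 0.16 with quantile normalization. The adjusted p ranged from 0.00547 to 0.212 over all of them.

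EPHX1 lies on chromosome 1 at 225810124 to 225845563 (GRCh38.p14), and RefSeq lists 3 start sites for it. The 250 bases before 2 of them are printed because EPHX1 passed the threshold in all 3 comparisons and is commonly counted among NRF2 targets. The first sequence, chr1:225809874-225810123 on the plus strand, precedes the most upstream start, and the second, chr1:225825104-225825353 on the plus strand, precedes the most downstream one. Both strands were searched for the core of the antioxidant response element, TGACNNNGC, and for the androgen receptor half-site TGTTCT. Capitals mark the match to the first motif.
EPHX1 upstream start: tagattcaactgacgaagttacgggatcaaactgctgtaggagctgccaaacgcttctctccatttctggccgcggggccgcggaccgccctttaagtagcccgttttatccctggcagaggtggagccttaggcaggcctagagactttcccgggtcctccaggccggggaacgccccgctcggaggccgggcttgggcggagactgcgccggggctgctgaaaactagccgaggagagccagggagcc
EPHX1 downstream start: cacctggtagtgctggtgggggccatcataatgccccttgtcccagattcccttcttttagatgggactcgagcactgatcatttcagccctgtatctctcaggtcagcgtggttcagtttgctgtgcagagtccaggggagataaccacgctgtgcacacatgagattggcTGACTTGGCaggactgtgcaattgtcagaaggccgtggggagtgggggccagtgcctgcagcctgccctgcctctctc

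The downstream window holds 1 match, TGACTTGGC on the plus strand, whose first base lies 78 bases before the start. The upstream window and the third EPHX1 window hold no match to either motif, so that no matches overlap. Of all 35116 RefSeq promoter windows of this length, 10.9% hold the antioxidant response element core and 12.4% the half-site. The 1 match in 3 windows is thus a description of the letters, and whether it is bound was not tested. The RefSeq windows of ABCC2 and ABCC5, 1 each, hold neither motif. No window of ABCC1 or ABCC3 was among those used, so that these genes were not searched. The arrays do not tell which start was used.

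ABCC1, also called MRP1, exports glutathione conjugates such as leukotriene C4, oxidised glutathione and anthracycline drugs, and lies on chromosome 16 at 15949143 to 16143053 (GRCh38.p14). Its brighter probe set, 202804_at, read 2612, 2356 and 2356 with androgen plus celastrol, 2955, 2709 and 2632 with androgen and 1072, 1235 and 1160 with vehicle. Every array with androgen, with or without celastrol, was above every vehicle array. The arrays with celastrol were all below those with androgen alone, although the gap between the nearest of them, 2612 and 2632, was small.

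The second ABCC1 probe set, 202805_s_at, read 537.3, 483.4 and 591.0 with androgen plus celastrol, 690.7, 560.1 and 672.1 with androgen and 201.2, 160.9 and 207.6 with vehicle. Here too all vehicle arrays were lowest, while the other 2 groups overlapped. ABCC1 was higher with androgen than with vehicle by 1.26 ± 0.09 on the log2 scale, a 2.39-fold difference (limma, adjusted p = 2.98e-05). The second probe set differed by 1.76 ± 0.13, or 3.38-fold (limma over all probe sets, adjusted p = 4.52e-05). With androgen plus celastrol the difference from vehicle was 1.08 ± 0.09, or 2.11-fold (limma, adjusted p = 5.33e-05), and 2.84-fold in the second probe set (adjusted p = 8.74e-05). Neither call was lost in any of 21 alternative settings, with log2 changes between 1.20 and 1.51 for androgen and between 0.96 and 1.29 for androgen plus celastrol.

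Between androgen plus celastrol and androgen alone, ABCC1 differed by -0.18 ± 0.09 with a 95% interval of -0.38 to 0.02 (limma, adjusted p = 0.249). The second probe set differed by -0.25 ± 0.13 with an interval of -0.56 to 0.05 (adjusted p = 0.313). Both intervals hold 0 and reach further below it than above. The difference stayed negative, between -0.23 and -0.13, in 21 settings and passed the threshold in none of them.

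ABCC5, or MRP5, exports cyclic nucleotides and nucleotide analogues and lies on chromosome 3 at 183919934 to 184017884 (GRCh38.p14). Its probe set, 209380_s_at, read 169.6, 236.6 and 232.7 with androgen plus celastrol, 225.0, 202.1 and 167.4 with androgen and 315.1, 280.9 and 225.0 with vehicle. Vehicle arrays were the highest on average, but vehicle array 3 and androgen array 1 shared the same value, so that the groups touch. With androgen against vehicle ABCC5 differed by -0.46 ± 0.18 with an interval of -0.87 to -0.06 (limma, unadjusted p = 0.0299, adjusted p = 0.151). The reported fit paired no arrays. For this pair of groups an alternative setting took the arrays as paired by replicate number. That pairing rests on correlated deviations in these same data and is not stated in the labels. With the replicate block within the 6 arrays compared the adjusted p was 0.0229. That setting called 1 member higher and 2 lower, where 1502 of 12165 genes were called. The adjusted p of ABCC5 was 0.191 with the block in the fit of all 9 arrays. With quantile normalization the difference was -0.53 (adjusted p = 0.0173), with cyclic loess normalization -0.49 (0.0282) and with array weights -0.60 (0.00290), and it missed the threshold in the other settings. The difference was -0.36 ± 0.18 with androgen plus celastrol against vehicle (adjusted p = 0.187) and 0.10 ± 0.18 against androgen, with an interval of -0.31 to 0.50 (adjusted p = 0.796).

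ABCC2, or MRP2, exports conjugated bilirubin and drug conjugates across the apical membrane of liver, kidney and gut cells, and lies on chromosome 10 at 99782640 to 99852594 (GRCh38.p14). Its probe set, 206155_at, read 31.5, 31.5 and 29.6 with androgen plus celastrol, 30.0, 35.9 and 36.2 with androgen and 30.0, 31.5 and 57.5 with vehicle. All values but that of vehicle array 3 lay within a narrow band near the bottom of the range, and the groups overlapped. Against androgen, androgen plus celastrol differed by -0.13 ± 0.22 with an interval of -0.64 to 0.37 (limma, adjusted p = 0.774). Androgen differed from vehicle by -0.16 ± 0.22 (adjusted p = 0.746), and by 0.14 ± 0.10 without vehicle replicate 3 (adjusted p = 0.485). Androgen plus celastrol differed from vehicle by -0.30 ± 0.22 (adjusted p = 0.387), and by 0.0059 without vehicle replicate 3, so that no direction can be given for either.

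ABCC3, or MRP3, exports glucuronides and bile salts across the basolateral membrane and lies on chromosome 17 at 50634881 to 50692253 (GRCh38.p14). Its brightest probe set, 209641_s_at, read 33.0, 44.0 and 32.8 with androgen plus celastrol, 38.5, 42.1 and 41.9 with androgen and 43.2, 43.5 and 41.0 with vehicle. Array 2 with celastrol was the highest of all 9, and the other 2 with celastrol were the lowest of all 9. The probe set 208161_s_at ranged from 27.5 to 41.1 with androgen plus celastrol, from 29.3 to 38.8 with androgen and from 35.5 to 69.3 with vehicle, where the top value was again that of array 3. The probe set 214979_at lay between 25.3 and 35.0 over all 9 arrays, with means of 29.4 ± 3.38 with androgen plus celastrol, 28.3 ± 3.41 with androgen and 29.8 ± 4.77 with vehicle (SD, n = 3 each).

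No ABCC3 probe set passed the threshold in any of the 3 comparisons. The brightest one differed by -0.17 ± 0.12 between androgen plus celastrol and androgen (limma, adjusted p = 0.435), by -0.06 ± 0.12 between androgen and vehicle (adjusted p = 0.826) and by -0.23 ± 0.12 between androgen plus celastrol and vehicle (adjusted p = 0.206). Without androgen plus celastrol replicate 2 the last difference was -0.37 ± 0.09 and passed the threshold (adjusted p = 0.0214). For celastrol against androgen the other probe sets gave 0.02 ± 0.26 and 0.05 ± 0.14, so that the 3 did not share a sign. The plot of changes by probe set shows the intervals side by side.

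**Figure D2:**
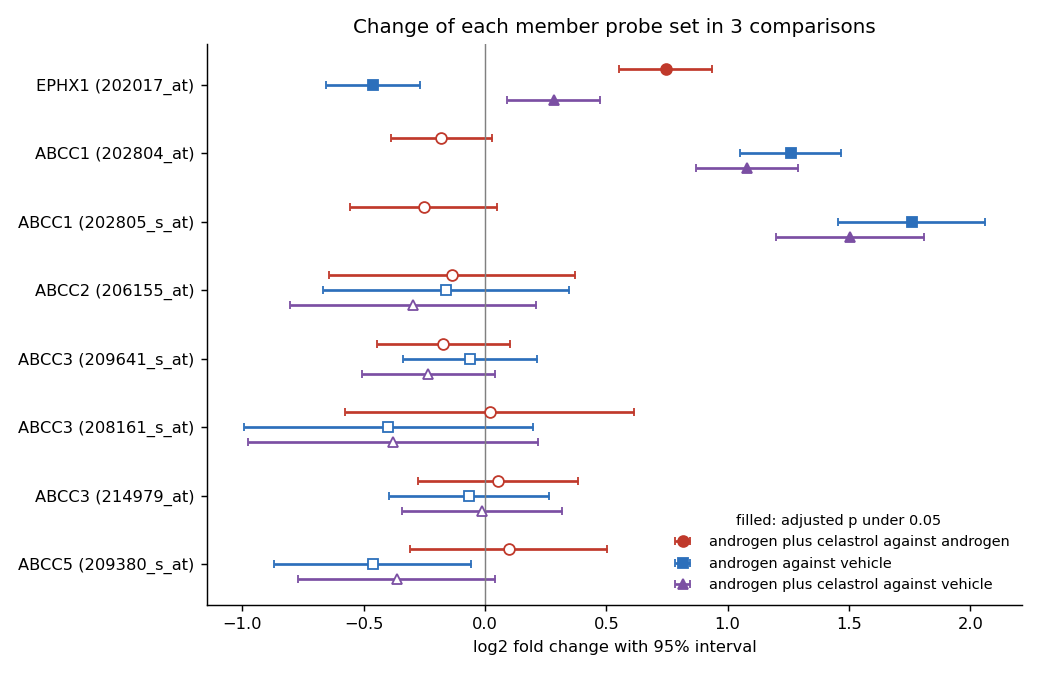
Log2 fold change with its 95% interval (horizontal axis) of each member probe set (rows) in the fit over all probe sets, with circles for androgen plus celastrol against androgen, squares for androgen against vehicle and triangles for androgen plus celastrol against vehicle; filled symbols have an adjusted p under 0.05. EPHX1 is filled in all 3 comparisons with androgen on the other side of 0 from the others, ABCC1 is filled in both comparisons with vehicle in both probe sets, and all symbols of ABCC2, ABCC3 and ABCC5 are open.

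Related genes were taken from lists chosen with earlier results of these data known, and counts are descriptions. In the rest of the ABCC family, 5 of 8 listed genes were measured. ABCC4, which exports cyclic nucleotides, prostaglandins and steroid conjugates, read 3883, 3830 and 4111 with androgen plus celastrol, 6051, 5798 and 6301 with androgen and 1893, 1921 and 2072 with vehicle, 3 groups without overlap. It rose by 1.62 ± 0.08 with androgen against vehicle (limma, adjusted p = 3.40e-06) and fell by 0.62 on the log2 scale with celastrol against androgen (adjusted p = 0.000875). ABCC1 and ABCC4 thus both rose with androgen, while with celastrol ABCC4 passed the threshold and ABCC1 did not, and the difference between their celastrol changes was not tested. CFTR, ABCC8, ABCC9 and ABCC10 passed in no comparison, with changes from -0.75 for ABCC8 to 0.20 for ABCC10, and ABCC8 had vehicle array 3 at 204.7 and the others at 51.6 and 49.1.

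Of 9 measured ABC exporters of drugs and lipids outside the family, none passed the threshold with celastrol against androgen, where 1 fell without vehicle replicate 2 or without vehicle replicate 3. ABCG2, the breast cancer resistance protein, read 61.8, 41.9 and 36.3 with androgen plus celastrol, 40.1, 29.5 and 31.6 with androgen and 103.8, 86.3 and 66.1 with vehicle, and fell by 1.33 on the log2 scale with androgen against vehicle (limma, adjusted p = 0.00490). ABCG1, which exports cholesterol, fell by 1.26 in the same comparison (adjusted p = 0.00107), and its second probe set changed by -0.48 without passing (adjusted p = 0.339 over all probe sets). Both genes are dim. ABCB1, the pump called P-glycoprotein, changed by -0.24 ± 0.21 (adjusted p = 0.577).

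Among the other epoxide hydrolases the order of the groups differed from that of EPHX1. EPHX2, the soluble enzyme that opens epoxides of fatty acids, read 202.6, 175.6 and 212.7 with androgen plus celastrol, 367.5, 334.2 and 375.6 with androgen and 285.9, 278.8 and 195.2 with vehicle. It was lower with celastrol than with androgen by -0.87 ± 0.15 on the log2 scale (limma, adjusted p = 0.00491), and its difference between androgen and vehicle was 0.52 ± 0.15 (adjusted p = 0.0571). That second difference depends on the setting: 1 of these hydrolases was called higher with androgen under median centring, quantile or cyclic loess normalization, the larger pseudocount, the filter on dim genes, the intensity trend or array weights, and none was with any 1 array left out. LTA4H, which makes leukotriene B4, changed by -0.66 ± 0.10 with androgen (adjusted p = 0.00190) and by -0.01 ± 0.10 with celastrol against androgen (adjusted p = 0.955). EPHX3 passed in no comparison, with changes from -0.16 to -0.02.

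The members stood beside a broad rise of NRF2-related genes with celastrol. Their list holds regulators as well as targets and includes ABCC4 but no member. Of its 24 measured genes 22 rose, where 9.0% of all genes were called upwards and 7.24% downwards. ABCC4 fell and CUL3 did not pass (limma, -0.05 ± 0.08, adjusted p = 0.741). The list had a median of 1.33 on the log2 scale where all genes had 0.02. HMOX1, which degrades heme, rose by 6.27 ± 0.26, the aldo-keto reductases AKR1C2 by 6.94 ± 0.17 and AKR1C1 by 6.65 ± 0.19, a pair too similar in sequence to be told apart with certainty, and CBR3, a carbonyl reductase, by 2.85 ± 0.10. The EPHX1 rise of 0.74 was below the list's median, and the 4 ABCC members lay between -0.18 and 0.10. The same list had a median of -0.07 with androgen against vehicle, with 3 genes called higher and 5 lower. Of all genes 7.17% were called upwards there and 5.84% downwards. The 5 lower genes included AKR1C1, AKR1C2, CBR3 and GCLC, and over 21 alternative settings 2 to 9 genes of the list were lower. With androgen plus celastrol against vehicle, both labelled 24 h, 22 of the 24 were higher with a median of 1.17, where 13.3% of all genes were higher. EPHX1 was higher there by 0.28, a call lost in 11 of 21 settings.

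Glutathione supply and transfer is the step before export by ABCC pumps. With celastrol against androgen 3 of 21 genes rose, 1 fell and 17 did not pass, a share near the 16.2% of all genes called, and the number that fell was 3 without vehicle replicate 3. GCLM and GCLC, the subunits of the enzyme that limits glutathione synthesis, rose by 1.64 ± 0.11 (limma, adjusted p = 4.95e-05) and 1.44 ± 0.11 (adjusted p = 7.87e-05), and the transferase GSTA4 by 0.50 ± 0.07 (adjusted p = 0.00192). GGT1, which breaks glutathione down outside the cell, was lower by -1.05 ± 0.17 (adjusted p = 0.00322), and its 4 probe sets, whose probes can bind related genes, were all lower. GCLC resembled EPHX1 in the order of the groups. It read 1737, 1950 and 1574 with androgen plus celastrol, 722.0, 575.1 and 643.4 with androgen and 1033, 1033 and 993.8 with vehicle. GCLM did not, with means of 2903 with androgen plus celastrol, 928 with androgen and 651 with vehicle. The bright transferases GSTO1 (0.17) and MGST3 (-0.26) did not pass with celastrol against androgen. The plot of members beside related lists shows these genes.

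**Figure D3:**
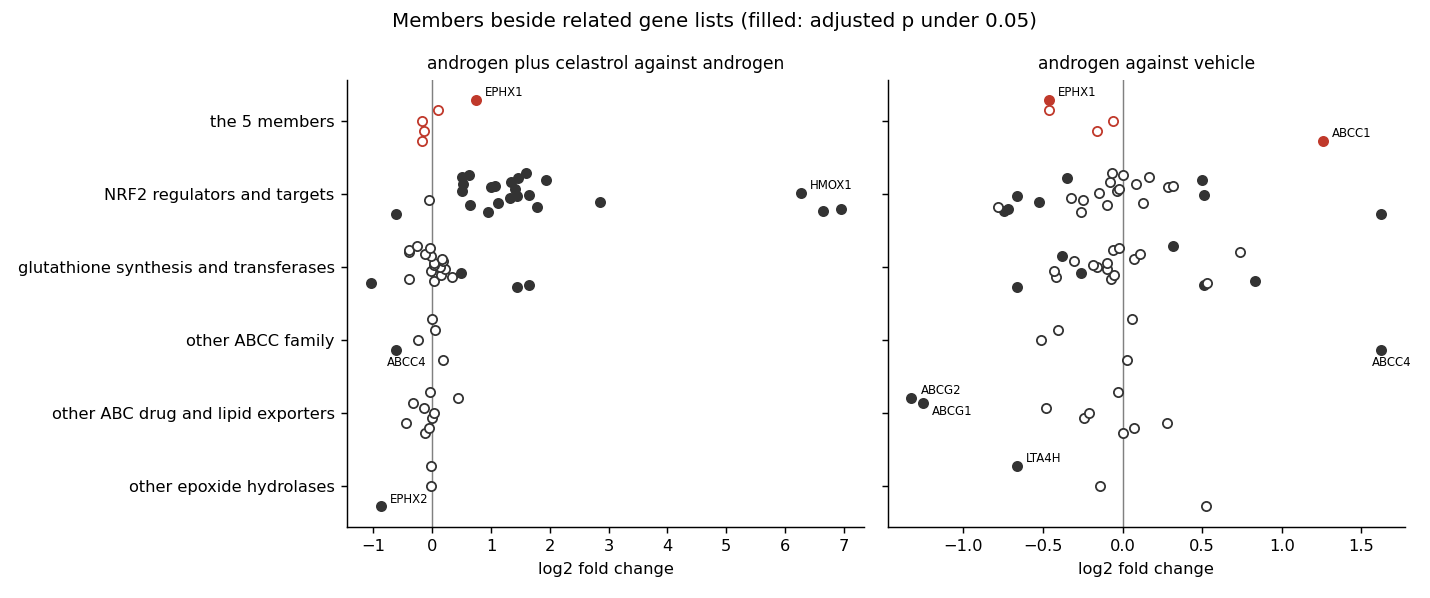
Log2 fold change (horizontal axes) with androgen plus celastrol against androgen on the left and androgen against vehicle on the right, for the 5 members (red) and for genes of 5 related lists (black), 1 point per gene and filled where the adjusted p was under 0.05; vertical offsets within a row only separate the points. On the left the NRF2 list lies mostly above 0.4 while of the members EPHX1 alone is filled, and on the right ABCC1 and ABCC4 lie farthest to the right.

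Ezrin and radixin tie apical transporters such as ABCC2 to the cytoskeleton. Of 6 measured genes of such anchors none passed the threshold with celastrol against androgen (limma), where 1 fell without vehicle replicate 3. EZR rose by 0.46 ± 0.08 with androgen against vehicle (adjusted p = 0.00465), and RDX changed by -0.19 ± 0.09 (adjusted p = 0.231).

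The genes whose log2 intensity followed a member most closely over the 9 arrays were found by Pearson's r, as a description, since all arrays share the group differences. EPHX1 was followed by ATP1B1, a subunit of the sodium pump (r = 0.99), AZIN1, which protects ornithine decarboxylase from its inhibitor (0.98), and the proteasome subunit PSMB4 (0.98), and 128 genes had r above 0.9. ABCC1 was followed by ARFIP2, APIP and OTULINL (0.99 each), and 321 genes had r above 0.9. ABCC5 was followed by YPEL1, PIGT and TESMIN (0.97 each). ABCC3 was followed by GABRQ, WSCD1 and GAST at r = 0.94, 0.93 and 0.92, all dim. For ABCC2 the closest were SERPINA1, TEX41 and FCER1A (0.99, 0.99 and 0.98), which all had their highest value on vehicle array 3, and r fell to 0.90, 0.92 and 0.90 without that array.

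**Figure D4:**
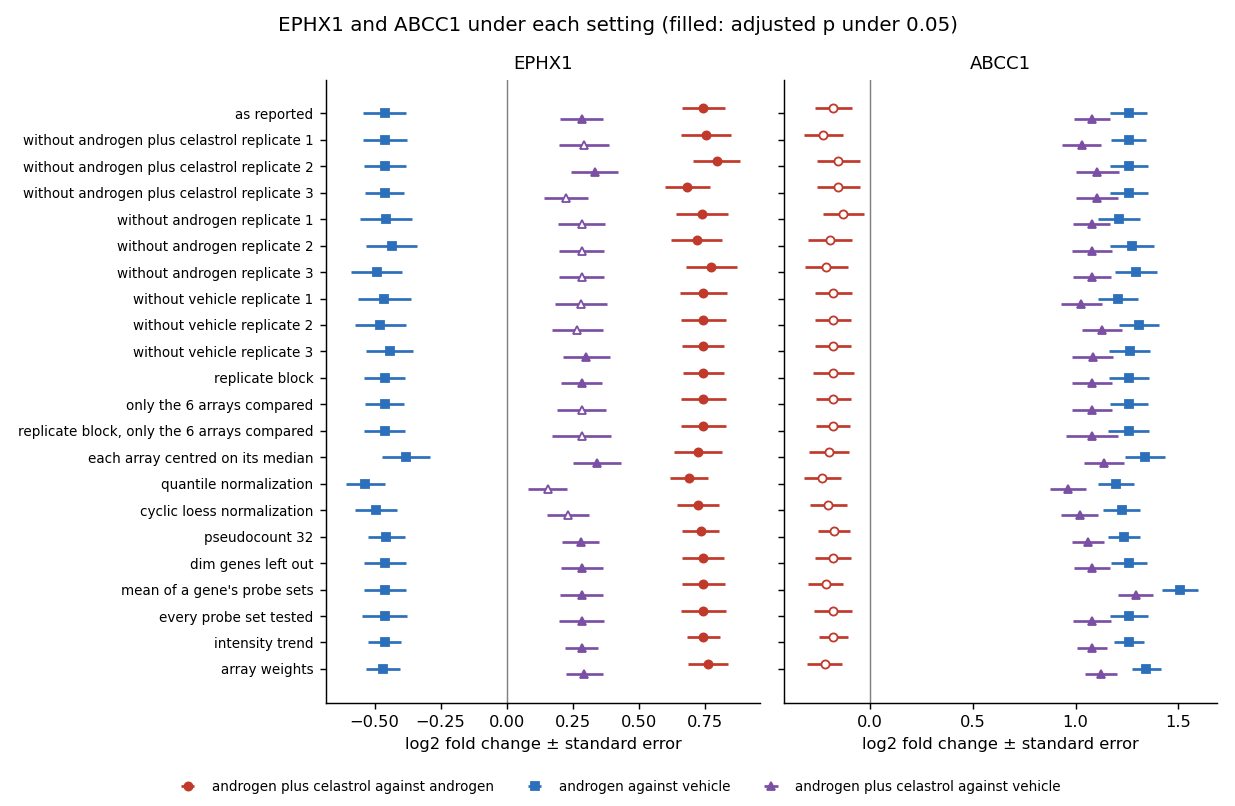
Log2 fold change ± standard error (horizontal axes) of EPHX1 on the left and ABCC1 on the right as reported and in each of 21 alternative settings (rows), with circles for androgen plus celastrol against androgen, squares for androgen against vehicle and triangles for androgen plus celastrol against vehicle; filled symbols have an adjusted p under 0.05. All circles and squares of EPHX1 and all squares and triangles of ABCC1 are filled, while 11 triangles of EPHX1 and all circles of ABCC1 are open.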

How the data were processed

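RNA of 9 LNCaP cultures was measured as biotin-labelled cRNA on Affymetrix arrays, per the labels. The authors deposited linear intensities, 1 value for each probe set on each array, which were made with RMA per the submitters' processing notes (version not given in the sources used here). RMA removes differences in total RNA between arrays. Among the deposited values, 44.3% of 22215 probe sets hold the same value on 2 or more arrays, as do 4 of the 8 member probe sets, which can make replicates look closer than they are.

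Intensities were taken to log2 with a pseudocount of 0, a choice made from their range. Of the probe sets, 19724 have 1 gene in the platform annotation, 568 have several and 1923 none listed, and 19707 were given current symbols by gene ID. Each of 12165 genes entered with its brightest probe set. One model held all 9 arrays (limma 3.58.1 under R 4.3.3, with 6 residual and 2.7 prior degrees of freedom). The Benjamini-Hochberg adjustment ran over all genes or, for single probe sets, over all probe sets, and 0.05 was the threshold. The median standard error was 0.13, and the number of arrays limits the precision. The fit was tested on simulated data.

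Named genes were drawn from a rule: the members, the 3 genes most like each member, and genes of each list. From a list it took up to 4 genes past the threshold with the largest celastrol change and the 2 brightest that did not pass. It also took all that passed in a direction where under 6 did. Not all genes given by the rule are named. Among those left out are UGT2B17, CYP1B1, GSR and SQSTM1, and UGT2B17 averaged 495 with androgen and 5149 with vehicle. Other genes, such as ABCB1, CFTR and ABCC9, and values of named genes in other comparisons were chosen after they were seen. Members and lists were chosen with earlier results of these data known. Listed genes that are not among the 12165 were not analysed here. No detection calls, control probe sets or scan dates were used. Correlations of deviations from the group means between arrays of the same replicate number were 0.40, 0.37 and 0.63 for androgen and vehicle. They were -0.09, 0.21 and -0.19 for androgen plus celastrol and androgen and -0.25, 0.11 and -0.29 for androgen plus celastrol and vehicle. Arrays of different replicate numbers were not compared in this way. The reported fit paired no arrays. Pairing of androgen and vehicle arrays entered only through the settings with the replicate block, and the other pairs of groups were taken as not paired. Alternatives varied the arrays, the replicate block, the normalization, the pseudocount, a filter on dim genes, the choice of probe set, the variance model and array weights. Promoter windows are RefSeq's of GRCh38.p14.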

Additional observations from a re-analysis of the deposited data

How the results depend on the processing

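Of the members, the androgen and celastrol calls of EPHX1 and the calls of ABCC1 against vehicle held in all 21 settings. No setting addresses the conflict of 6 h and 24 h in the labels of the androgen arrays. Of these calls, only that of ABCC1 with androgen plus celastrol against vehicle is free of it. With array weights 3254 genes were called for androgen against vehicle, 1417 upwards and 1837 downwards, against 1583, 872 and 711. With the replicate block within the 6 arrays compared 1099 were called for androgen plus celastrol against vehicle, against 2840. Leaving out 1 array gave 1306 genes (without androgen replicate 2) to 2667 (without vehicle replicate 3) for celastrol against androgen, against 1976. With each array centred on its median 1182 of 1711 calls for androgen were upwards, and the median of all genes was 0.04 where it was -0.04.

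EPHX1 in androgen plus celastrol against vehicle (0.28) kept its value but missed the threshold within the 6 arrays compared (adjusted p = 0.0933) and there with the replicate block (0.212), became 0.16 with quantile and 0.23 with cyclic loess normalization, and lay between 0.22 and 0.33 with 1 array left out. The number of members called there was 1 within the 6 arrays, with or without the block, and 1 to 3 with 1 array left out. ABCC5 passed for androgen against vehicle at -0.46 with the replicate block within the 6 arrays compared, at -0.53 with quantile and -0.49 with cyclic loess normalization and at -0.60 with array weights. Against vehicle with androgen plus celastrol it passed at -0.47, -0.43 and -0.45 with quantile and cyclic loess normalization and array weights, and with celastrol against androgen it lay between -0.018 and 0.25 with 1 array left out, negative without androgen replicate 3. ABCC2 lay between -0.33 and 0.14 for androgen against vehicle and between -0.46 and 0.0059 for androgen plus celastrol against vehicle with 1 array left out, and at 0.12 for androgen with array weights. ABCC3 turned to 0.019 with median centring, 0.026 with quantile and 0.0058 with cyclic loess normalization for androgen against vehicle, and lay between -0.37 and -0.16 for androgen plus celastrol against vehicle with 1 array left out. The causes were not tested. With dim genes left out ABCC2 and ABCC3 were not among the genes tested. For the pairs of groups taken as not paired, the block within the 6 arrays is given for completeness, and beyond those named it changed no call of a member.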

Other observations

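Genes of other steps of drug and steroid clearance also passed the threshold with celastrol against androgen, where 16.2% of all genes were called. CYB5A, the cytochrome b5 that supports cytochrome P450 reactions, averaged 3692 ± 305 with androgen plus celastrol and 6794 ± 110 with androgen (SD, n = 3 each), lower by -0.88 ± 0.08 on the log2 scale (limma, adjusted p = 0.000213). CYP2E1, which oxidises ethanol and small solvents, was dim at 44.7 ± 4.08 and 95.7 ± 9.37 in the same groups (adjusted p = 0.000708). UGDH, which makes the UDP-glucuronate used for glucuronidation, averaged 2814 ± 162 with androgen plus celastrol and 1413 ± 73.3 with androgen, higher by 0.99 ± 0.09 (adjusted p = 0.000221). Of 13 measured genes of glucuronidation and sulfation 1 rose, UGDH, and 2 fell, and 2 rose without vehicle replicate 3. UGT2B28, a glucuronosyltransferase that acts on steroids, averaged 93.1 ± 10.9 with androgen plus celastrol, 609 ± 67.7 with androgen and 190 ± 37.4 with vehicle (SD, n = 3 each). It differed by -2.71 ± 0.16 on the log2 scale with celastrol against androgen (limma, adjusted p = 2.38e-05), and its probes can bind related genes. The sulfotransferase SULT2B1 changed by -0.47 ± 0.09 (adjusted p = 0.0103).

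Of 17 measured cytochrome P450 and partner genes 4 fell and none rose with celastrol against androgen (limma), and the number that fell was 2 without androgen plus celastrol replicate 1 or 2, any 1 androgen array, or vehicle replicate 1. Without androgen plus celastrol replicate 1 or vehicle replicate 3, 1 rose. Of 16 uptake carriers of organic anions and cations and 7 xenobiotic receptors and partners none passed, and 1 of each rose without vehicle replicate 3. Of these carriers 14 were dimmer than the median gene. SLC22A5, a carnitine carrier, averaged 315 ± 46.2 with androgen plus celastrol, 313 ± 6.75 with androgen and 203 ± 14.0 with vehicle, and rose by 0.63 ± 0.11 with androgen against vehicle (adjusted p = 0.00531).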
